A study of Mus musculus with 16 samples.

Results

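The Cyp3a and Cyp2d cytochromes P450 of mouse liver were followed across liver tumors and nontumor liver of mice on 2 diets. The genes were chosen by symbol from a table of TPM, a measure of transcript abundance corrected for transcript length and library total: Cyp3a11, Cyp3a13, Cyp3a16, Cyp3a25, Cyp3a41a and Cyp3a44, and Cyp2d9, Cyp2d10, Cyp2d22 and Cyp2d26. Of these 10 genes, 9 were among the 20601 genes listed, and Cyp3a41a was not analysed here. The other 7 Cyp3a and Cyp2d genes listed, apart from 4 named as pseudogenes, served for comparison.

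All mice carried tumors raised by hydrodynamic delivery of plasmids for human N-Ras (19 μg per mouse) and human c-Myc (1 μg), with 2 μg of a plasmid for the Sleeping Beauty transposase, which inserts the oncogenes into the genome of the liver cells that take them up. From week 4 to week 8 one set of mice ate a ketogenic diet (KD) of 89.5% fat, 10.4% protein and 0.1% carbohydrate, and the other a normal diet (ND). At week 8, tumor and nontumor tissue of the liver was taken from 8 mice in all, and its polyadenylated RNA was sequenced, which gave 16 libraries in 4 groups of 4: ND nontumor, ND tumor, KD nontumor and KD tumor. Every nontumor sample is therefore from a tumor-bearing liver that received the oncogene plasmids, and liver without the plasmids was not analysed here. Strain, sex and age were not given in the sources used here. The labels do not say which samples share a mouse or were pooled, so the p-values below measure the spread between these samples only.

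Cytochromes P450 of these families are heme enzymes of the endoplasmic reticulum that oxidize drugs, steroids, bile acids and other foreign or endogenous lipids. They receive electrons from P450 reductase and, in part, from cytochrome b5. In hepatocytes, Cyp3a genes are known targets of the pregnane X receptor (PXR) and the constitutive androstane receptor (CAR), while several Cyp2d and Cyp3a genes are known to be set by sex through growth hormone, with Cyp2d9 male-biased and Cyp3a16, Cyp3a41a and Cyp3a44 reported mainly in young or female liver.

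The members lie in 2 regions. In GRCm38 (mm10), with positions from GENCODE M21, Cyp3a16, Cyp3a41a, Cyp3a44, Cyp3a11 and Cyp3a25 lie in this order on the minus strand of chromosome 5 between position 145436309 (the end of Cyp3a16 farthest from Cyp3a25) and 146009618 (the start of Cyp3a25), and Cyp3a13 lies apart on the same chromosome at 137892932 to 137921619. The Cyp2d members lie on chromosome 15, with Cyp2d22 at 82370527 to 82380260, Cyp2d10 at 82402846 to 82407195, Cyp2d9 at 82433437 to 82456845 and Cyp2d26 at 82790101 to 82794294, all on the minus strand except Cyp2d9. RefSeq promoters (GRCm38.p6, 250 bases before to 50 bases after the start) were at hand for 9 of the 10 members. RefSeq and GENCODE starts can differ: the Cyp2d9 window lies inside the GENCODE gene given above. Positions in the windows count from the RefSeq start. The sequences below are shown because these genes are close relatives that did not all move alike. They run 5′ to 3′ on the gene's strand, and capitals mark matches, on either strand, to a TATA box, a CCAAT box, a nuclear receptor half-site, an HNF4 motif, an HNF1 half-site, a STAT5 motif or a C/EBP core, whose letters follow the sequences. The Cyp3a windows are those of Cyp3a11 (chr5:145879805-145880104, minus strand), Cyp3a44 (chr5:145805825-145806124, minus strand), Cyp3a25 (chr5:146009569-146009868, minus strand) and Cyp3a59 (chr5:146079008-146079307, plus strand).
Cyp3a11: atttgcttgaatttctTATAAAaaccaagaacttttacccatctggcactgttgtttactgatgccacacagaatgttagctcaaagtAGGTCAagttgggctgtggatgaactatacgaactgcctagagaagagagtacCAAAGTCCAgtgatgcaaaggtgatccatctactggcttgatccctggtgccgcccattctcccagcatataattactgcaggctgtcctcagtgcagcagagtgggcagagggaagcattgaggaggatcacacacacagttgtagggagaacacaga
Cyp3a44: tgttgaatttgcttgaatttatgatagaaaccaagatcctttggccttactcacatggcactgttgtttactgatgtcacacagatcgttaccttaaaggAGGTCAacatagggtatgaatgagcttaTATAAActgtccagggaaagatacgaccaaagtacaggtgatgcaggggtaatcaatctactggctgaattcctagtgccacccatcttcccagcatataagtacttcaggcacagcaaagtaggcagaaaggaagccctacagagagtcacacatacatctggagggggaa
Cyp3a25: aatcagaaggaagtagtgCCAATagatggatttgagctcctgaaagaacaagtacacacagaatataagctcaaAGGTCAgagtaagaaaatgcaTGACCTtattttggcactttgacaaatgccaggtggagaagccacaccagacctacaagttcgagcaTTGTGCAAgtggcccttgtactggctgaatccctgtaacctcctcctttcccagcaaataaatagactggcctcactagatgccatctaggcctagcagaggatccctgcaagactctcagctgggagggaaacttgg
Cyp3a59: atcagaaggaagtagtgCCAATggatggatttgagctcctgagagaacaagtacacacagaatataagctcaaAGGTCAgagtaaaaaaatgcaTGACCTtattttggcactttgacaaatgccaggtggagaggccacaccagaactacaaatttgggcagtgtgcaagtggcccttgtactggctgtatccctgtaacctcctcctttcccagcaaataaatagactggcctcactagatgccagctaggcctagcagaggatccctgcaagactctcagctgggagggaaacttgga
The Cyp2d windows are those of Cyp2d9 (chr15:82452127-82452426, plus strand), Cyp2d10 (chr15:82407145-82407444, minus strand) and Cyp2d26 (chr15:82794196-82794495, minus strand).
Cyp2d9: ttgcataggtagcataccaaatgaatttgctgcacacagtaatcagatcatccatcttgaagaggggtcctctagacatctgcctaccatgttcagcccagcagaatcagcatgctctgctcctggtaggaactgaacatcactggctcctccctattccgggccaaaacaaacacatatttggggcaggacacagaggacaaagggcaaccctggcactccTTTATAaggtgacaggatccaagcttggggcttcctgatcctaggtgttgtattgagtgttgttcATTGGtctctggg
Cyp2d10: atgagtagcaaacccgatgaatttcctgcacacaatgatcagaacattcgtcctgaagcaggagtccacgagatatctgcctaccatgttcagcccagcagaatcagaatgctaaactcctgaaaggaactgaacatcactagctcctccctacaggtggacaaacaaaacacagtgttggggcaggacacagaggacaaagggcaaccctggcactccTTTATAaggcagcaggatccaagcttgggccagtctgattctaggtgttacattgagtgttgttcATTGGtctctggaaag
Cyp2d26: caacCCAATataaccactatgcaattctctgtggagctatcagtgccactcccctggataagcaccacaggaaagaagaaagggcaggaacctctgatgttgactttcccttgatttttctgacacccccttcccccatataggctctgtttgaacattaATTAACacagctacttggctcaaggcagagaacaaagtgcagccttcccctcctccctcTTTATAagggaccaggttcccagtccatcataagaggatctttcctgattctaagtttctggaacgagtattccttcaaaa

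The Cyp3a25 and Cyp3a59 windows were 95.7% identical over their alignment, and those of Cyp2d9 and Cyp2d10 82.9%, whereas Cyp3a11 and Cyp3a44 shared 71.5% and Cyp3a11 and Cyp3a25 52.8%. The HNF4 motif CAAAGTCCA was found in 0.477% of 27025 promoters of this length. It was present in Cyp3a11, first base at -109 relative to the start, and in the windows of Cyp3a16, Cyp3a41a and Cyp3a41b, and the window of Cyp3a44 held no copy of these letters. Cyp3a25 and Cyp3a59 each held the nuclear receptor half-site AGGTCA in both orientations (16.04% of promoters had at least 1 match), and a C/EBP core match to TTNNGCAA (10.8% of promoters) stood in Cyp3a25 alone of this pair. The TATA box letters TATAAA read on the opposite strand stood at -28 in Cyp2d9 and at -31 in Cyp2d10 and Cyp2d26 (14.2% of promoters had a TATAAA match on either strand), and Cyp2d26 also held the HNF1 half-site GTTAAT on the opposite strand (7.20% of promoters). CCAAT had a match in 37.9% of promoters and the STAT5 motif TTCNNNGAA in 8.47%, and the latter was matched in none of the 14 Cyp3a and Cyp2d windows at hand. None of the searched motifs contains another, and a match is a description of letters, not of a bound site.

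Over the listed genes the libraries held 3.52 to 14.1 M reads. The listed genes made up 7.38% of the full TPM total in ND nontumor 4, the library with the fewest reads, and 49.96% to 88.4% in the other 15. Values below are therefore TPM divided by a median-of-ratios factor for each library (rescaled TPM), and a fold change is a difference of log2(rescaled TPM + 1). The tissue label was checked against 9 listed hepatocyte markers: none was at 0, and their summed level ranged from 63439 to 126987 rescaled TPM in ND nontumor, 67674 to 133447 in ND tumor, 35683 to 114904 in KD nontumor and 135102 to 188783 in KD tumor. The sums overlapped between the first 3 groups, and the KD tumors stood above them all. By single marker, 3 of the 9 fell and 0 rose in ND tumors, and 3 rose and 2 fell in KD tumors. Of all genes, 14.2% were lower and 14.5% higher in tumors on ND, and 16.2% and 16.3% on KD. In bulk tissue, fewer cells of a type and less RNA per cell cannot be told apart. All 5 Kupffer cell markers fell in ND tumors and 4 of 5 in KD tumors, with summed levels of 188 to 271 rescaled TPM in ND nontumor, 7.48 to 31.4 in ND tumor, 97.8 to 163 in KD nontumor and 25.5 to 53.4 in KD tumor. Of 4 tested cholangiocyte markers, 2 rose and 1 fell in ND tumors and 1 rose in KD tumors: Spp1 rose on both diets and Sox9 on ND, while Krt19 fell on ND. Of 5 stellate cell and fibroblast markers, 3 rose and 2 fell on ND and 3 rose and 1 fell on KD, and of 4 red blood cell markers 3 fell on ND. Of 5 endothelial markers, 3 rose and 2 fell on ND and 0 were called on KD. Of 5 T and NK cell markers, 2 rose on ND and 1 on KD. A single call in lists this short is not far from the shares of all genes given above. The part of these shifts in the results below was not tested.

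Cyp3a25, Cyp2d9, Cyp2d10 and Cyp2d26 were the abundant members, and Cyp3a16 and Cyp3a44 were close to the limit of detection. In ND nontumor liver the order by mean was Cyp2d10 (1022 ± 260 rescaled TPM, SD, n = 4), Cyp2d9 (920 ± 242), Cyp2d26 (545 ± 150), Cyp3a25 (389 ± 65.1), Cyp2d22 (194 ± 12.8), Cyp3a11 (168 ± 114) and Cyp3a13 (42.7 ± 3.91). The libraries of neighbors in this order overlapped, except between Cyp3a25 and Cyp2d22 and between Cyp3a11 and Cyp3a13. TPM here divides reads by the annotated exon length of the gene (2658 bases for Cyp2d9, 1648 for Cyp2d10). The order above thus depends on the annotation. By reads, Cyp2d9 (12639, 13719, 13859 and 3373 in ND nontumor 1 to 4) stood above Cyp2d10 (6885, 9093, 10246 and 2903).

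Which members differ between tumor and nontumor liver was asked on each diet. On ND, 5 of the 7 members that passed the filter on low values fell in tumors (limma, adjusted p under 0.05 over 13432 genes), against 14.2% of all genes lower and 14.5% higher. They were Cyp3a11, Cyp2d9, Cyp2d10, Cyp2d22 and Cyp3a25. On KD, 4 of 7 fell, Cyp2d22, Cyp2d9, Cyp3a13 and Cyp2d10, against 16.2% of all genes lower and 16.3% higher. The median fold change of the 7 was -1.16 on ND and -1.01 on KD, beside medians of -0.0024 and 0.012 over all genes. With all listed genes scaled to a common sum, 2612 genes were higher and 1089 lower in ND tumors and 1197 higher and 2826 lower in KD tumors, in place of 1946 and 1909 and of 2189 and 2175, and 4 and 6 members then fell. On TPM as deposited, 2 members fell on ND and 0 on KD by limma (2 and 3 at an unadjusted p under 0.05), and on that scale without ND nontumor 4 the counts were 5 and 6. With voom on recovered reads 6 fell on ND and 5 on KD. By unadjusted p under 0.05, 6 members on ND and 5 on KD differed, each with the lower values in tumors. Tumors lay below nontumor samples without overlap for 6 of 7 members on ND and 4 of 7 on KD. Of all tested genes, 13.7% were lower and 13.8% higher in tumors without overlap on ND, and 17.3% and 15.8% on KD.

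Cyp3a11, the principal drug-oxidizing Cyp3a enzyme of mouse liver and a standard readout of PXR, varied widely between groups and between libraries of a group. In ND nontumor liver it was at 76.9, 302, 222 and 70.4 rescaled TPM in libraries 1 to 4, and in ND tumors at 12.4, 18.8, 18.3 and 16.6. All 4 ND tumors lay below all 4 ND nontumor samples, which themselves spread widely. The fold change was -3.01 ± 0.59 (SE; 8.04-fold lower, limma adjusted p = 0.00115).

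On KD, Cyp3a11 was at 166, 121, 23.1 and 39.8 in nontumor liver and at 71.2, 46.8, 56.3 and 175 in tumors. The KD groups overlapped fully, and the KD nontumor samples split into a high pair (1 and 2) and a low pair (3 and 4). The difference was 0.20 ± 0.59 (95% interval -1.04 to 1.44, adjusted p = 0.814), and it read -0.90 (adjusted p = 0.323) with KD nontumor 3 and 4 left out and -0.13 on TPM as deposited. KD nontumor 3 and 4 held 6.13 and 5.68 M reads against 11.0 M in each of 1 and 2.

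**Figure D1:**
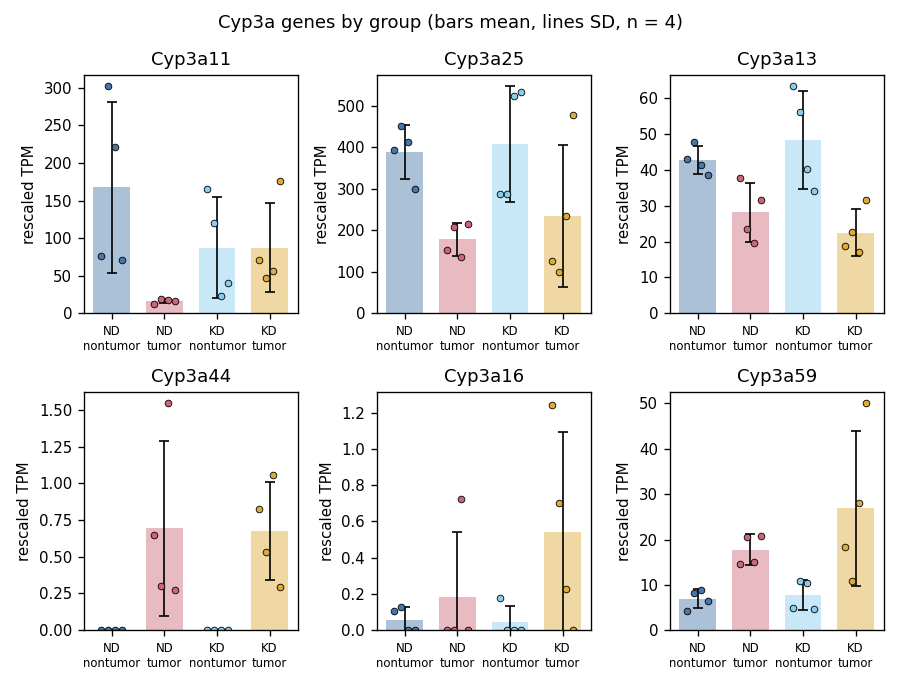
Rescaled TPM of 5 Cyp3a members and of Cyp3a59 in the 4 groups. Bars are means, lines SD and points single libraries (n = 4 per group), each panel with its own linear axis from 0. ND tumors hold the lowest Cyp3a11 values (12.4 to 18.8), Cyp3a44 is at 0 in all nontumor libraries, and Cyp3a59 is higher in tumors.

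Cyp3a25, an adult liver enzyme, was at 393, 452, 413 and 299 in ND nontumor liver and at 154, 209, 136 and 215 in ND tumors. The ND groups did not overlap, and the fold change was -1.13 ± 0.39 (adjusted p = 0.038). This call was lost, with adjusted p from 0.0715 to 0.0976, on leaving out any of ND nontumor 1, 2 or 3 or ND tumor 1 or 3, and it was lost as well without the filter (0.0662), on a common sum of the listed genes (0.123) and on TPM as deposited (0.736). Its adjusted p over all alternatives ran from 0.00358 to 0.736.

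On KD, Cyp3a25 was at 288, 288, 523 and 534 in nontumor liver and at 126, 99.9, 236 and 477 in tumors. KD tumor 4 lay within the nontumor range and the other 3 tumors below it. The fold change was -1.003 ± 0.39 with adjusted p = 0.0576, and -1.44 with adjusted p = 0.00344 without KD tumor 4 (0.00344 to 0.45 over all alternatives). The pair of KD nontumor libraries that was low for Cyp3a11 was the high pair for Cyp3a25.

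Cyp3a13, found in intestine as well as liver and encoded apart from the cluster, was at 43.0, 47.8, 41.3 and 38.5 in ND nontumor liver and at 37.8, 23.5, 19.5 and 31.7 in ND tumors. It was at 63.3, 56.1, 40.2 and 34.0 in KD nontumor liver and at 18.7, 22.6, 17.0 and 31.6 in KD tumors. Tumors lay below nontumor samples on both diets, by a narrow gap in each. The fold change passed the test on KD (-1.07 ± 0.24, adjusted p = 0.00303) and missed it on ND (-0.62 ± 0.24, adjusted p = 0.061). The ND value passed in 5 of 28 alternatives (0.0221 to 0.997 over all), among them those without KD tumor 4 (0.0462) and without ND tumor 1 (0.0325), and the KD call was lost on TPM as deposited (0.158). The difference between these 2 changes was -0.45 ± 0.34 (adjusted p = 0.498).

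Cyp3a44 and Cyp3a16 did not pass the filter on low values, which asked for a TPM of 1 or more in 4 or more libraries. Cyp3a44 had 0 reads in all 8 nontumor libraries and 6, 3, 17 and 4 reads in ND tumors 1 to 4 (0.647, 0.302, 1.55 and 0.276 rescaled TPM), and 12, 6, 16 and 3 in KD tumors (0.823, 0.530, 1.06 and 0.297). Every tumor library thus held reads and no nontumor library did. Against a floor of 3 reads over the group, the pooled level of the tumors was at least 7.45-fold higher on ND and at least 10.2-fold higher on KD, with intervals and floors covering counting error only. In the fit without the filter, Cyp3a44 entered through the tumors alone, the group where it is high, so its p-value there is not used. Of its 50-base windows, 26.5% occur in transcripts of another annotated gene, the largest share in Cyp3a41a (11.5%), which was not analysed here, so its few reads are uncertain as to source.

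Cyp3a16, an enzyme of fetal and newborn liver, had 7 reads in ND tumor 3 and 0 in the other 3 ND tumors, 16, 7, 3 and 0 in KD tumors 1 to 4, and at most 2 in any nontumor library. In sum it had 33 reads in 8 tumors and 4 in 8 nontumor libraries. The groups overlapped, and without the filter its adjusted p was 0.812 on ND and 0.134 on KD.

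Outside the members, Cyp3a59, the neighbor of Cyp3a25 in the cluster, was higher in tumors, opposite in direction to Cyp3a25. Cyp3a59 was at 4.23, 8.11, 8.94 and 6.34 rescaled TPM in ND nontumor liver and at 14.6, 20.6, 15.0 and 20.8 in ND tumors, and at 4.88, 10.8, 10.3 and 4.79 in KD nontumor liver and 18.3, 10.9, 28.1 and 50.1 in KD tumors. Every tumor lay above every nontumor sample on its diet, as for 13.8% of all tested genes on ND and 15.8% on KD. The fold change was 1.27 ± 0.37 on ND (adjusted p = 0.0166) and 1.56 ± 0.37 on KD (adjusted p = 0.00445). The ND call was lost without ND nontumor 1 (adjusted p = 0.0556) and on TPM as deposited without ND nontumor 4 (0.0572), and the KD call on TPM as deposited (0.157). Cyp3a25 and Cyp3a59 share 25.2% of Cyp3a25's 50-base windows and 6.79% of its 100-base windows, so reads from the shared stretches cannot be assigned to 1 of them.

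Cyp3a57 passed the filter through the tumors alone. It had 0 reads in all ND nontumor libraries and 28, 11, 17 and 9 in ND tumors, which is at least 16.2-fold higher against a floor of 3 reads over the group. On KD it had 4 reads in 1 nontumor library and 25, 37, 12 and 12 in tumors, a ratio of pooled levels of 17.7 from 86 and 4 reads. These are values of the libraries. The gene was part of the fit, but its p-value is not used, because it entered through the group where it is high.

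Among the Cyp2d members, Cyp2d9 fell most in ND tumors. This testosterone hydroxylase, known for its male bias in mouse liver, was at 876, 1133, 1073 and 597 in ND nontumor liver and at 112, 167, 119 and 123 in ND tumors. It was at 921, 788, 757 and 990 in KD nontumor liver and at 250, 225, 251 and 383 in KD tumors. The tumor groups lay below the nontumor groups without overlap, and the 2 tumor groups did not overlap each other either. The fold change was -2.78 ± 0.24 on ND (6.89-fold lower, adjusted p = 7.34e-07) and -1.66 ± 0.24 on KD (3.16-fold lower, adjusted p = 0.000116). The ND call held in all 28 alternatives (adjusted p at most 0.0393), and the KD call in all but TPM as deposited (0.0656).

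Cyp2d10 had the highest mean rescaled TPM of the members in nontumor liver. It was at 770, 1211, 1279 and 828 in ND nontumor liver and at 378, 471, 279 and 300 in ND tumors. On KD it was at 1384, 1178, 810 and 969 in nontumor liver and at 541, 542, 509 and 524 in tumors. Tumors were again below all nontumor samples, and the 4 KD tumors differed little, with a coefficient of variation of 2.97%. The fold change was -1.51 ± 0.25 on ND (adjusted p = 0.000271) and -1.01 ± 0.25 on KD (adjusted p = 0.0054). Of its 50-base windows, 35.8% occur in transcripts of another annotated gene, and reads from these stretches cannot be assigned to 1 gene. The largest share, 22.9%, is with Cyp2d11, whose own level was far lower (3.41 ± 1.21 rescaled TPM in ND nontumor liver, SD, n = 4).

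Cyp2d22, often treated as the mouse counterpart of the human drug-metabolizing Cyp2d enzyme, was at 187, 198, 181 and 210 in ND nontumor liver and at 98.3, 91.4, 74.6 and 83.4 in ND tumors. On KD it was at 147, 143, 246 and 235 in nontumor liver and at 59.8, 53.6, 66.5 and 72.4 in tumors. The tumor values were tightly grouped, and the KD nontumor samples split into the same pairs as for Cyp3a25. The fold change was -1.16 ± 0.19 on ND (adjusted p = 0.000344) and -1.56 ± 0.19 on KD (adjusted p = 3.04e-05).

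Cyp2d26 was the abundant member whose tumor and nontumor levels overlapped on both diets. It was at 398, 683, 666 and 435 in ND nontumor liver and 417, 552, 408 and 488 in ND tumors, and at 875, 788, 717 and 809 in KD nontumor liver and 767, 474, 768 and 682 in KD tumors. The differences were -0.19 ± 0.24 on ND (95% interval -0.69 to 0.30, adjusted p = 0.577) and -0.27 ± 0.24 on KD (-0.77 to 0.23, adjusted p = 0.404), so falls of the size seen for Cyp2d9 and Cyp2d10 lie outside both intervals. On a common sum of the listed genes the ND value read 0.060, and on KD Cyp2d26 then fell (-0.60, adjusted p = 0.0194, the lowest of its 28 alternatives, which reached 0.773).

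**Figure D2:**
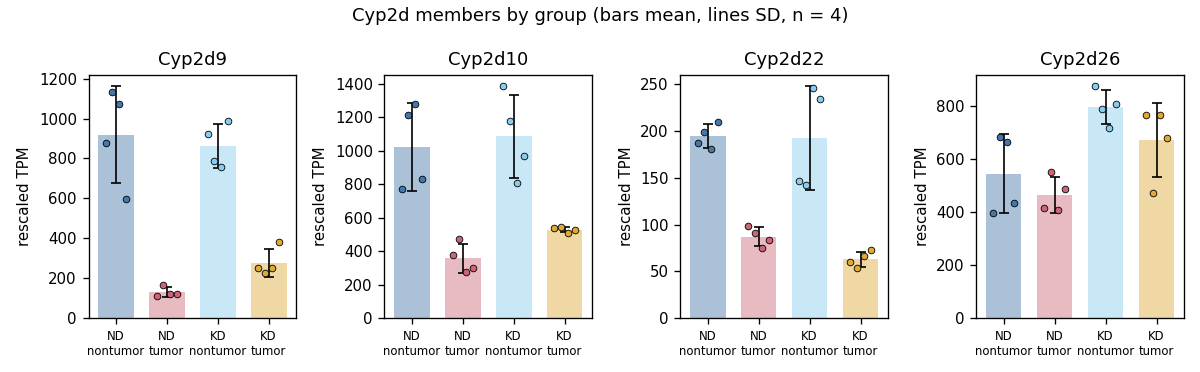
Rescaled TPM of the 4 Cyp2d members in the 4 groups. Bars are means, lines SD and points single libraries (n = 4 per group), on linear axes from 0. Cyp2d9, Cyp2d10 and Cyp2d22 are lower in every tumor than in any nontumor sample of the same diet, and the groups of Cyp2d26 overlap between tumor and nontumor liver. Of all tested genes, 13.7% on ND and 17.3% on KD are lower in tumors without overlap.

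The other Cyp2d genes listed were lower in tumors, like Cyp2d9, where they passed the test. Cyp2d13, annotated by RefSeq as a transcribed pseudogene, was as abundant as the members in nontumor liver (420 ± 75.9 on ND and 680 ± 297 on KD, SD, n = 4) and was at 90.9 ± 13.9 and 99.8 ± 58.9 in tumors. It fell by 2.19 on the log2 scale on ND (adjusted p = 0.000251) and by 2.81 on KD (adjusted p = 3.37e-05). Cyp2d40 fell by 1.27 and 1.61 (adjusted p = 0.0129 and 0.00262), the latter call lost without KD nontumor 3 and 4 (0.0677). On TPM as deposited the ND calls of Cyp2d13 (adjusted p = 0.166) and Cyp2d40 (0.512) were lost. Cyp2d11 was at -0.95 ± 0.35 on ND (adjusted p = 0.0506) and -0.57 ± 0.35 on KD, and Cyp2d12 and Cyp2d34 did not pass the filter, with at most 19 and 4 reads in any library.

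Because the members did not change by the same factor, the makeup of each family differed between tumor and nontumor libraries. The share of a gene is a ratio within a library, which no scaling factor alters, while the family sums are in rescaled TPM. Each share depends on the annotated exon lengths and is given as a description. The Cyp2d sum covers 9 genes, among them the transcribed pseudogene Cyp2d13 (group means of 5.81% to 18.4%). Summed Cyp2d rescaled TPM was 3138 ± 589 in ND nontumor, 1146 ± 181 in ND tumor, 3673 ± 310 in KD nontumor and 1659 ± 211 in KD tumor (SD, n = 4). Cyp2d26 made up 17.2 ± 2.02% of it in ND nontumor and 40.8 ± 3.01% in ND tumor, 21.8 ± 1.80% in KD nontumor and 40.3 ± 5.43% in KD tumor. Its lowest share in any tumor, 34.8%, was above its highest share in any nontumor library, 23.7%. Cyp2d9 went the other way, at 29.0 ± 3.44%, 11.4 ± 1.03%, 23.5 ± 1.35% and 16.6 ± 2.78% in the same order.

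Summed Cyp3a rescaled TPM was 607 ± 176 in ND nontumor, 243 ± 43.4 in ND tumor, 552 ± 64.1 in KD nontumor and 374 ± 248.9 in KD tumor. By TPM, Cyp3a25 was the largest part in every library (53.0% to 87.7%). The exon length behind its TPM is 2083 bases, against 5093 for Cyp3a11. By reads, Cyp3a11 was above Cyp3a25 in some libraries (7007 against 4294 in ND nontumor 2). It was below in others (762 against 1325 in ND nontumor 4). Cyp3a11 made up 25.4 ± 11.1% in ND nontumor, 6.93 ± 1.79% in ND tumor, 16.9 ± 13.8% in KD nontumor and 23.9 ± 5.50% in KD tumor. Each KD tumor (16.6% to 29.9%) had a larger Cyp3a11 share than any ND tumor (5.57% to 9.48%). Cyp3a59 made up 5.90% to 8.29% in tumors and 0.781% to 2.27% in nontumor libraries.

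**Figure D3:**
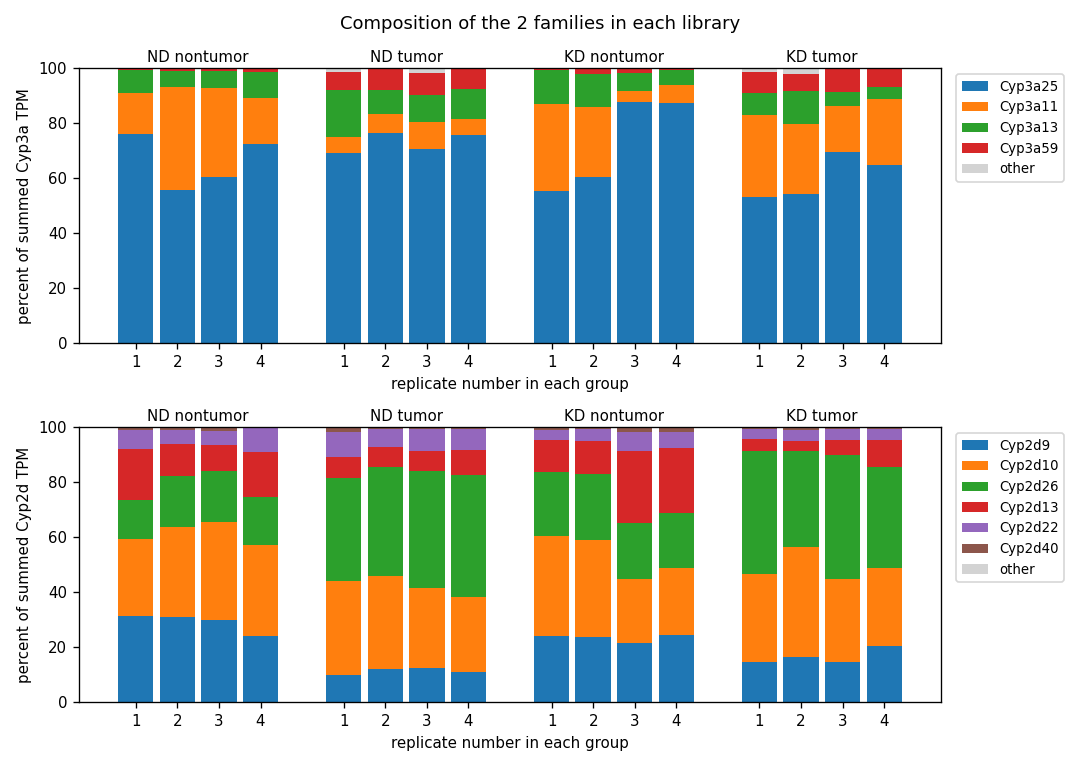
Share of each gene in the summed TPM of its family, in percent, for each of the 16 libraries. Cyp2d26 makes up 34.8% to 45.1% of Cyp2d in tumors and 14.3% to 23.7% in nontumor libraries, and Cyp3a11 makes up less of Cyp3a in ND tumors (5.57% to 9.48%) than in KD tumors (16.6% to 29.9%).

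Which members differ with diet was asked within tumors and within nontumor liver. In tumors, 2 of 7 members rose on KD, Cyp3a11 and Cyp2d9, against 7.21% of all genes higher and 8.49% lower. Cyp3a11 rose by 2.15 ± 0.59 (4.44-fold, adjusted p = 0.0229) and Cyp2d9 by 1.07 ± 0.24 (2.10-fold, adjusted p = 0.00941), and for both every KD tumor was above every ND tumor in the values above. On a common sum, 273 genes were higher and 2606 lower in place of 969 and 1140, and the members called were Cyp3a11 higher and Cyp3a13 and Cyp2d22 lower. The KD tumor level of Cyp2d9 (277 ± 71.8 rescaled TPM) stayed below that of KD nontumor liver (864 ± 110), whereas that of Cyp3a11 (87.4 ± 59.5) equalled it (87.4 ± 67.6) to 3 digits with wide spread. The Cyp3a11 call was lost without KD tumor 4 (1.75, adjusted p = 0.076) and without ND tumor 1 (2.03, adjusted p = 0.0636), with a range of 0.00644 to 0.175 over all alternatives. The Cyp2d9 call was lost on TPM as deposited (1.03, adjusted p = 0.809) and on a common sum (0.60, adjusted p = 0.0567), with the lowest adjusted p at 0.0041. TPM as deposited gave 0 members by limma (1 at an unadjusted p under 0.05), and 2 without ND nontumor 4, and voom gave 2.

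The tumor groups of Cyp2d10 and Cyp2d22 did not overlap although the test was missed. Of all genes, 12.3% were higher and 10.5% lower on KD without overlap. Cyp2d10 was at 509 to 542 rescaled TPM in KD tumors and 279 to 471 in ND tumors (0.60 ± 0.25, adjusted p = 0.105). Cyp2d22 was at 53.6 to 72.4 in KD tumors and 74.6 to 98.3 in ND tumors, the opposite direction (-0.46 ± 0.19, adjusted p = 0.112), and it passed without KD nontumor 3 and 4 (adjusted p = 0.032) and on a common sum (0.0228). The remaining values were 0.51 ± 0.24 for Cyp2d26 (adjusted p = 0.142), -0.31 ± 0.24 for Cyp3a13 and 0.15 ± 0.39 for Cyp3a25. The summed level of the hepatocyte markers was also higher in KD tumors (135102 to 188783 rescaled TPM) than in ND tumors (67674 to 133447). Among them Alb, the albumin gene, was at 69262 ± 8386 in KD tumors and 33796 ± 11146 in ND tumors (1.08 ± 0.55, adjusted p = 0.183). None of the 9 hepatocyte markers passed the limma test in this comparison. The part of the higher sum in the change of Cyp3a11 and Cyp2d9 was not tested.

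In nontumor liver, 0 of 7 members passed the limma test between diets, where 0.00744% of all genes were higher and 0.0447% lower on KD. With voom on the recovered reads the count was also 0, and by unadjusted p under 0.05 it was 1, Cyp2d26. Cyp2d26 was at 717 to 875 rescaled TPM on KD and at 398 to 683 on ND, without overlap, as were 3.19% of all genes in that direction (0.59 ± 0.24, adjusted p = 0.45). Cyp3a11 was at -1.06 ± 0.59 (adjusted p = 0.66), and at 0.037 with KD nontumor 3 and 4 left out. Intervals for the remaining members ran from -0.80 (Cyp3a25) to 0.84 (Cyp3a25).

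Whether the tumor difference depends on diet was tested as an interaction, for which 0 of 7 members passed, against 0.208% of all genes higher and 0.409% lower. By unadjusted p under 0.05 there were 2 members, Cyp3a11 and Cyp2d9, and voom on the recovered reads called 0. The interaction was 3.21 ± 0.83 for Cyp3a11 (95% interval 1.45 to 4.96, adjusted p = 0.0847) and 1.13 ± 0.34 for Cyp2d9 (0.41 to 1.84, adjusted p = 0.112). Cyp3a11 passed on a common sum (adjusted p = 0.0417), with sample weights (0.0455), without KD nontumor 1 (0.0449) and on TPM as deposited with ND nontumor 4 left out (0.0456), and the highest of its alternatives was 0.435. Cyp2d9 passed with sample weights alone (0.0414), and its highest was 0.96. The tumor comparison on KD and the comparison of diets in tumors share the KD tumor libraries, so their values are given side by side and not as support for each other.

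**Figure D4:**
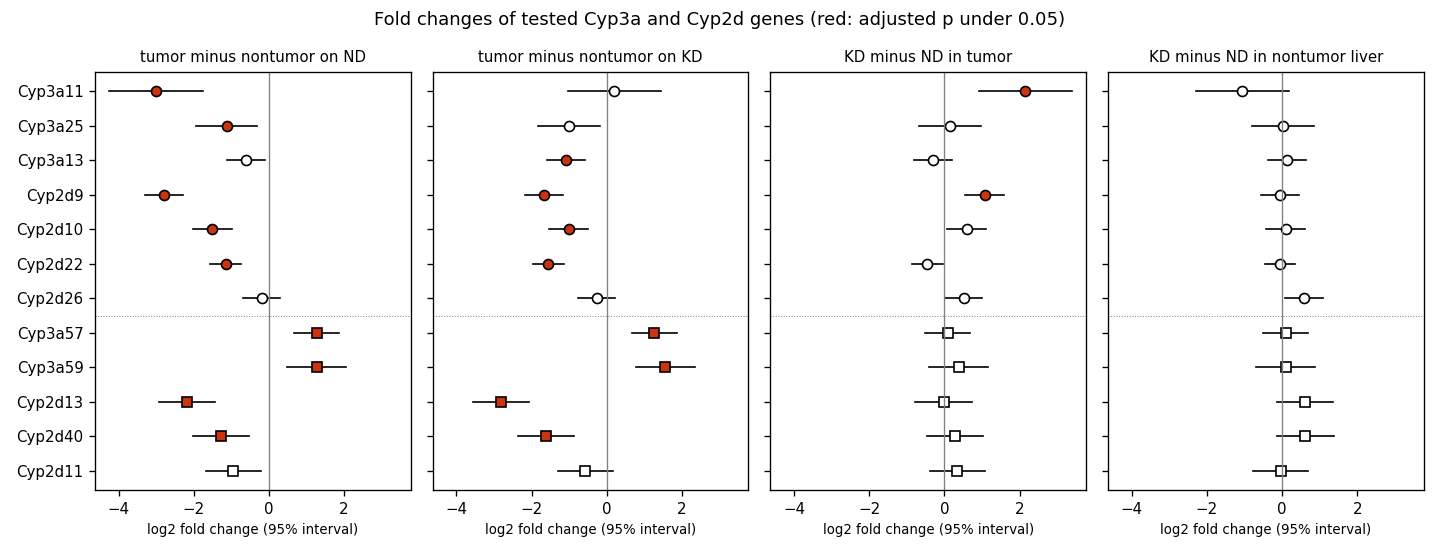
Fold change on the log2 scale with its 95% interval for the 7 tested members (circles) and 5 other Cyp3a and Cyp2d genes (squares) in 4 comparisons. Red points have adjusted p under 0.05 (limma, all 13432 genes), with the median-of-ratios scaling. Most Cyp2d points lie left of 0 in tumors on both diets, and Cyp3a59 lies to the right. Cyp3a57 passed the filter through the tumors alone, so its interval and red mark in the tumor comparisons are not to be read as a test. Cyp3a11 is at -3.01 on ND and at 0.20 on KD, the latter at -0.13 on TPM as deposited.

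The genes around these enzymes were read from lists of electron partners, heme enzymes, receptors and regulators. Of the 6 microsomal electron transfer and membrane partners, 3 fell in ND tumors (14.2% of all genes did): Por, the P450 reductase (-2.01 ± 0.21, adjusted p = 4.3e-06), Cyb5a, cytochrome b5 (-1.83 ± 0.34, adjusted p = 0.000731), and Pgrmc1, a heme-binding membrane partner of P450 enzymes (-1.35 ± 0.35, adjusted p = 0.00809). On KD, Por fell (-1.71 ± 0.21) and Cyb5r3, the cytochrome b5 reductase, rose (1.23 ± 0.22, adjusted p = 0.00069), shares of 1 in 6 each, near those of all genes (16.2% lower, 16.3% higher). Of 12 genes of heme synthesis and breakdown, 6 fell in tumors on each diet, against 14.2% of all genes on ND and 16.2% on KD. Alas1, the rate-limiting enzyme of heme synthesis, fell by 2.77 on ND and by 1.84 on KD (adjusted p = 5.14e-06 and 0.000252). Cpox, a later step, fell on ND (-1.85 ± 0.25) and was higher in KD than in ND tumors (1.66 ± 0.25, adjusted p = 0.00122).

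Of 13 xenobiotic receptors and partners tested, 4 fell in ND tumors and 3 in KD tumors, against 14.2% and 16.2% of all genes, so the list's share on KD is not far from that of all genes. Nr1i3, which encodes CAR, fell from 9.15 ± 2.51 to 0.805 ± 0.793 rescaled TPM on ND (-2.56 ± 0.27, adjusted p = 5.72e-06) and from 24.8 ± 3.03 to 1.37 ± 0.463 on KD (-3.46 ± 0.27, adjusted p = 4.49e-07). Nr1i2, which encodes PXR, fell less, from 156 ± 29.1 to 93.3 ± 18.5 on ND (-0.74 ± 0.20, adjusted p = 0.0111) and from 142 ± 23.5 to 65.1 ± 10.9 on KD (-1.12 ± 0.20). Ahr, the aryl hydrocarbon receptor, fell by 1.14 and by 1.38. The Cyp3a11 levels thus stood beside lower Nr1i2 and Nr1i3 in tumors of both diets.

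Of 17 hepatocyte transcription factors, 9 fell and 3 rose in ND tumors, and 9 fell and 1 rose in KD tumors. All genes had 14.2% lower and 14.5% higher on ND, near the list's share of rises, and 16.2% and 16.3% on KD. Foxa2, a pioneer factor of liver, fell by 0.80 on ND and by 1.62 on KD, Nr1h4, the bile acid receptor, fell by 1.52 on ND, and Foxa3 rose on ND (1.14 ± 0.19, adjusted p = 0.00037). Nfil3, a repressor under clock control, fell by 1.79 on KD. Of 10 tested growth hormone and sex-bias regulators, 5 fell and 1 rose in ND tumors and 7 fell in KD tumors, against 14.2% lower and 14.5% higher of all genes on ND and 16.2% lower on KD. Ghr, the growth hormone receptor, fell from 38.7 ± 11.9 to 8.22 ± 1.86 rescaled TPM on ND (-2.08 ± 0.29) and by 1.34 on KD. Socs2, an inhibitor of growth hormone signaling, fell by 1.99 on ND, Stat5a by 0.96 on KD, and Bcl6, a repressor, by 1.05 and 1.23.

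A further list held genes placed under PXR and CAR, mostly of drug handling. Alas1 is counted in it as well as in the heme list. Of its 20 tested genes, 9 fell and 1 rose in ND tumors, and 11 fell and 2 rose in KD tumors. Of all genes, 14.2% were lower and 14.5% higher on ND and 16.2% and 16.3% on KD. Sult2a8, a liver sulfotransferase, fell by 5.85 on ND and by 3.87 on KD, and it was higher in KD than in ND tumors (2.35 ± 0.39, adjusted p = 0.00204), the same directions as Cyp2d9. Ces2a, a carboxylesterase, fell by 2.94 on ND, and Tsku, a secreted hepatocyte protein, fell by 2.75 on ND and fell by 4.08 on KD. Between diets in tumors, 3 of the 20 were higher and 4 lower on KD, with Sult1e1, the estrogen sulfotransferase, higher (1.87 ± 0.43, adjusted p = 0.0106) and Gstm1, a glutathione transferase, lower (-2.63 ± 0.47, adjusted p = 0.00311). In the same comparison the partners had 2 higher, heme 2 higher and 2 lower, the receptors 1 higher, the hepatocyte factors 3 higher and 1 lower, and the growth hormone list 1 higher. Of all genes 7.21% were higher and 8.49% lower, and the receptor and growth hormone counts are near that share. Between diets in nontumor liver and for the interaction, 0 of the 77 tested genes of these lists passed by limma or by voom, with 21 each at an unadjusted p under 0.05 by limma.

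The genes whose pattern over the 16 libraries was most like each member were found among 8140 genes outside both families, by Pearson's r on the log2 scale, as a description. The libraries share tissue and diet groups, so a high r reflects group differences as well. Cyp2d9 was closest to Sult2a8 (0.990), followed by Slc1a2 and Pon1, and Cyp2d10 to Mbl1 (0.983), followed by Abhd6 and Ugt3a2. Cyp2d22 was closest to Sirt7 (0.987), Cyp3a11 to Sdc2 (0.946), Cyp3a25 to Gcdh (0.930), Cyp3a13 to Gaa (0.901) and Cyp2d26 to Idh3b (0.852). The 3 nearest genes of Cyp2d9 (r of 0.990, 0.984 and 0.983) and of Cyp2d10 (0.983, 0.970 and 0.970) had no name in common. With values this close, that does not show a difference in pattern. Cyp2d26 had the lowest best match of the 7.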

How the data were processed

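RNA-seq was deposited as a table of TPM for 20601 genes in 16 libraries. Per the submitters' processing notes, the authors used FastQC, HISAT2, SAMtools and featureCounts with mm10, and versions, annotation and the step to TPM were not given in the sources used here. Nontumor libraries are named with P in the table and with N in the titles, and were matched by diet letters and number.

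Whole reads were recovered from the TPM steps for 20601 of 20601 genes (within 0.001 reads), and the length behind the TPM equalled the GENCODE M21 exon length for 98.0% of 12923 genes checked. The deposited TPM were divided, library by library, by median-of-ratios factors from 12119 genes detected in every library. Genes with deposited TPM of at least 1 in at least 4 libraries were tested (13432, among them 7 members) with limma 3.58.1 (R 4.3.3) with a variance trend on log2(rescaled TPM + 1), in 1 fit of 4 group means without a block, with Benjamini-Hochberg adjustment over all tested genes and a threshold of 0.05. Every adjusted p is from this test unless another is named. No 2 libraries of a group agreed within sampling noise (lowest chi-square per degree of freedom 12.3).

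The members and lists were chosen with earlier results of these data known. Named genes are the 10 members, the other listed Cyp3a and Cyp2d genes, up to 4 genes per list and comparison with the smallest p, and the 3 genes most like each member (mean TPM of at least 5, predicted genes left out). Alternatives changed the scaling, pseudocount, filter, weights, block, trend and samples, and left out each library. The last 3 were added after the data were seen: voom on recovered reads, KD nontumor 3 and 4 left out, and TPM as deposited with ND nontumor 4 left out. Promoters are from RefSeq, and shared windows were counted over the annotated transcripts.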

Additional observations from a re-analysis of the deposited data

Results flagged for a closer look

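Of 34 groups of 4 libraries checked (9 members, groups constant at 0 left out), 3 had 1 library whose gap to the next exceeded Dixon's critical value for 4 values. The rate of about 1 in 20 by chance applies to continuous values, not to counts that are mostly 0. Cyp2d9 in KD tumor 4 was at 383 rescaled TPM, above 225 to 251 in the other 3 KD tumors. Cyp3a16 in ND tumor 3 was at 0.723 rescaled TPM (7 reads) with 0 in the other 3. Cyp3a16 in KD nontumor 1 was at 0.177 rescaled TPM (2 reads) with 0 in the other 3. With the other 3 at 0 the gap equals the whole range whatever the value, so both Cyp3a16 flags were fixed in advance.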

How the results depend on the processing

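The count of members called was 4 to 6 for tumors on ND, 4 to 5 on KD, 1 to 2 between diets in tumors (1 without KD tumor 4 or ND tumor 1), 0 to 0 between diets in nontumor liver and 0 to 1 for the interaction (1 without KD nontumor 1) when single libraries were left out. On TPM as deposited the counts were 2, 0 and 0 for tumors on ND, tumors on KD and diets in tumors, and with ND nontumor 4 left out on that scale 5, 6 and 2. The interaction gave 1 member on a common sum, 2 with sample weights and 1 on TPM as deposited with ND nontumor 4 left out. The scale moved the median log2 change of all genes to 0.42, -0.26, -0.00, 0.69 and -0.67 for tumors on ND, tumors on KD, diets in tumors, diets in nontumor liver and the interaction on TPM as deposited, and to 0.21, -0.26, -0.33, 0.10 and -0.46 on a common sum. Signs changed on TPM as deposited for Cyp2d26 at 0.47 for tumor against nontumor on ND, Cyp3a11 at -0.13 for tumor against nontumor on KD, Cyp2d22 at 0.90 and Cyp2d9 at 0.91 for diet in nontumor liver, Cyp3a25 at -0.87 and Cyp2d10 at -0.50 for the interaction. Signs changed on a common sum for Cyp2d26 at 0.060 for tumor against nontumor on ND, Cyp3a11 at -0.12 for tumor against nontumor on KD, Cyp3a25 at -0.32 for diet in tumors, Cyp2d22 at 0.056 and Cyp2d9 at 0.057 for diet in nontumor liver, Cyp3a25 at -0.46 and Cyp2d10 at -0.080 for the interaction. Signs changed with sample weights for Cyp3a11 at -0.72 for tumor against nontumor on KD, Cyp3a25 at -0.039 for diet in tumors, Cyp3a25 at -0.41 for diet in nontumor liver, Cyp2d26 at 0.020 for the interaction. Signs changed without both KD nontumor 3 and 4 for Cyp3a11 at -0.90 for tumor against nontumor on KD, Cyp3a11 at 0.037 and Cyp3a25 at -0.41 for diet in nontumor liver. Signs changed on TPM as deposited with ND nontumor 4 left out for Cyp3a11 at -0.13 for tumor against nontumor on KD, Cyp2d22 at 0.14 for diet in nontumor liver. Leaving out single libraries changed the sign of these values, given as ranges: for diet in nontumor liver Cyp2d22 -0.19 to 0.074, Cyp2d10 -0.032 to 0.23, Cyp3a25 -0.13 to 0.17, Cyp2d9 -0.25 to 0.059, for the interaction Cyp3a25 -0.30 to 0.44, Cyp2d26 -0.20 to 0.086, for tumor against nontumor on KD Cyp3a11 -0.30 to 0.64, for diet in tumors Cyp3a25 -0.28 to 0.46. None of these sign changes concerned a value past the threshold before the change, and the cause was not tested. Of 34 values given for genes outside both families, 19 lost their call on TPM as deposited and 4 on a common sum. Whether equal replicate numbers share a mouse is not known. In deviations from the group means, 2 of 8 same-numbered pairs of tumor and nontumor libraries correlated above 0.1. The own number was best for 1 of 8. This cannot decide the pairing, because tumor and nontumor tissue of 1 mouse need not vary together. With the numbers as a replicate block the members called were 5, 4, 2, 0 and 0, as without it. Depth of 3.52 to 14.1 M reads limits Cyp3a16 and Cyp3a44, whose largest counts were 16 and 17 reads.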
